A study of Homo sapiens with 13 samples.

Results

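The binding sites of wild-type DNMT1 were compared between a pair of MV4-11 lines, called NTC and WT, that had both been kept in DMSO for 7 days. MV4-11 is a human acute myeloid leukaemia line that carries a KMT2A-AFF1 fusion. Both lines overexpressed GFP-tagged wild-type DNMT1 and carried a guide against DNMT1 (gDNMT1), and the NTC line had also received a non-targeting guide (gNTC), as the control for a UHRF1 knockout. By the sample labels NTC belongs to batch 2 and WT to batch 1, so the batch and the extra guide cannot be told apart. The tagged protein is ectopic and overexpressed, and loss of the endogenous enzyme and equal expression of the transgene cannot be read from peak lists. Peaks of the anti-GFP ChIP-seq on chromosomes 1 to 22 and X were used, and peaks overlapping a peak of the untagged parental cells by at least 1 bp were removed. This left 23561 NTC peaks and 16706 WT peaks, which merged into 28426 regions, of 48763 regions over all 10 GFP-DNMT1 lists of the series. Of the 28426 regions, 11627 (40.9%) held a peak of both lines, 11787 (41.5%) of NTC only and 5012 (17.6%) of WT only.

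Each line had 1 library per treatment, so no difference between NTC and WT has a replicate check and none was tested. The other lists serve as a frame. Under DMSO they are UHRF1KO (wild-type GFP-DNMT1 with gDNMT1 and a guide against UHRF1, batch 2, 32523 peaks) and RFTSdel replicates 1 and 2 (GFP-DNMT1 lacking its RFTS domain, with gDNMT1, batch 1, 12240 and 14020 peaks). Nothing in the labels says whether the RFTSdel replicates came from separate cultures. NTC, WT, UHRF1KO and both RFTSdel replicates were also treated for 7 days with 100 nM of the DNMT1 inhibitor GSK-3685032 (DNMT1i). The labels give nothing on clones or pools. The lists hold no read counts, so depth is unknown, and the intervals given below are 95% Wilson intervals for counting error only. They hold no expression values either, so the labelled cell type was not checked against its markers.

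DNMT1 is the maintenance methyltransferase, which copies CpG methylation from the parent strand to the new strand behind the replication fork. UHRF1 recognises hemimethylated CpGs and ubiquitinates histone H3, and the RFTS domain of DNMT1 binds that mark. CpG islands at gene starts are dense in CpG and usually unmethylated, while gene bodies, repeats, imprinted regions and germline gene promoters are classical sites of CpG methylation in somatic cells. A peak records where tagged protein was crosslinked, not whether DNA there was methylated.

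The character of the sites is seen in their sequences. Below are the 250 bases before the gene start, read 5′ to 3′ on the strand of the gene, for the 3 strongest shared sites at a gene start and for the strongest sites of each single list at which a peak covered a start. They are from RefSeq (GRCh38.p14), in lower case, with every CpG in capitals. The first 3 were covered in both lists. ZNF414 encodes a zinc finger protein, UCHL5 a deubiquitinase of the proteasome, and SPNS1 a lysosomal lipid transporter.
ZNF414 (chr19:8514168-8514417, minus strand): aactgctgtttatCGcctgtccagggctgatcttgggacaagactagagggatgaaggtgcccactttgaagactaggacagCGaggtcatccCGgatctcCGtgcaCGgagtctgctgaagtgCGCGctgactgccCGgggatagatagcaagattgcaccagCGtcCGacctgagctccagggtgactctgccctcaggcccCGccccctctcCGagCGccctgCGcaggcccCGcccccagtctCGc
UCHL5 (chr1:193059361-193059610, minus strand): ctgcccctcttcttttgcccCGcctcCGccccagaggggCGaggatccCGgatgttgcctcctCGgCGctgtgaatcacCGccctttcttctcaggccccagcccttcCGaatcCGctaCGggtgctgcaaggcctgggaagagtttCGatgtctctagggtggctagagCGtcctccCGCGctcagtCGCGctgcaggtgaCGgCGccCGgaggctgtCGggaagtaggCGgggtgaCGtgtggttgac
SPNS1 (chr16:28974528-28974777, plus strand): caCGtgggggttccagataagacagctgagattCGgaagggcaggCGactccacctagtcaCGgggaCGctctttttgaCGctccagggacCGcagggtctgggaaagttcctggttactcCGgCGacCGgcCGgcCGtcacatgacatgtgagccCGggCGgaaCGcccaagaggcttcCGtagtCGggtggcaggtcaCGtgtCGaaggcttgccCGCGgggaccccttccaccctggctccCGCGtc
Those of PHB1, which encodes a prohibitin of the inner mitochondrial membrane, and DVL3, which encodes a Dishevelled protein of WNT signalling, were covered in NTC only.
PHB1 (chr17:49414883-49415132, minus strand): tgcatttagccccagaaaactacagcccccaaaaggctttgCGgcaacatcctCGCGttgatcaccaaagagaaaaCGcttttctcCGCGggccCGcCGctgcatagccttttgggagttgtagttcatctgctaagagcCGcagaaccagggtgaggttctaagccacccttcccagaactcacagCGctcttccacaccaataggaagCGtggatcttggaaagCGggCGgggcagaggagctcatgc
DVL3 (chr3:184155127-184155376, plus strand): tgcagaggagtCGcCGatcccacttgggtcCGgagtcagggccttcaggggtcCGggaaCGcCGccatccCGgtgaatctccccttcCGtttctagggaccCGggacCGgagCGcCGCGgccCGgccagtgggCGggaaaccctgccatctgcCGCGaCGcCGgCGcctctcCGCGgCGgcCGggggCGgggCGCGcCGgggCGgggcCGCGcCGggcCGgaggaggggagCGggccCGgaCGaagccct
That of PEX3, a peroxisome assembly gene that faces the tRNA deaminase gene ADAT2, was covered in WT only.
PEX3 (chr6:143450555-143450804, plus strand): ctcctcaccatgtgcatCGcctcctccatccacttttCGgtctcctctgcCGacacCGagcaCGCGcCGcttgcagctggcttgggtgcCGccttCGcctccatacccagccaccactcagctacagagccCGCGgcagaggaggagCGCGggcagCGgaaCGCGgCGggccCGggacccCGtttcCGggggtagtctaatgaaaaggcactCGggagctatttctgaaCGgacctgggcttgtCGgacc
These windows hold 16 CpGs at ZNF414, 22 at UCHL5, 23 at SPNS1, 13 at PHB1, 36 at DVL3 and 23 at PEX3. The median over all 22131 RefSeq promoter windows was 16. At these 6 starts the shared and the single-list windows overlapped in CpG number.

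Of the NTC peaks, 49.97% (interval 49.3 to 50.6) overlapped a WT peak by at least 1 bp, and of the WT peaks, 70.0% (69.3 to 70.7) overlapped an NTC peak. Sharing rose with peak strength in both lists. Peaks were ranked within their list by the authors' −log10 q, the significance that their peak caller gave each peak (values of different lists were not compared as amounts). In the weakest 10% of the NTC list 16.5% (15.1 to 18.1) were shared, and in the strongest 10% of it 88.1% (86.7 to 89.3). In WT the weakest and strongest 10% gave 41.4% (39.0 to 43.7) and 95.45% (94.3 to 96.4). At −log10 q of 10 or more, 51 of 52 NTC peaks and 27 of 27 WT peaks were shared. The strongest unshared peak stood at rank 39 in NTC and at rank 42 in WT. Where both lists were held to −log10 q of at least 4, the shares fell to 35.7% and 44.6%, with 833 shared, 1503 NTC-only and 1034 WT-only regions, since a strong peak then needed a strong partner.

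**Figure D1:**
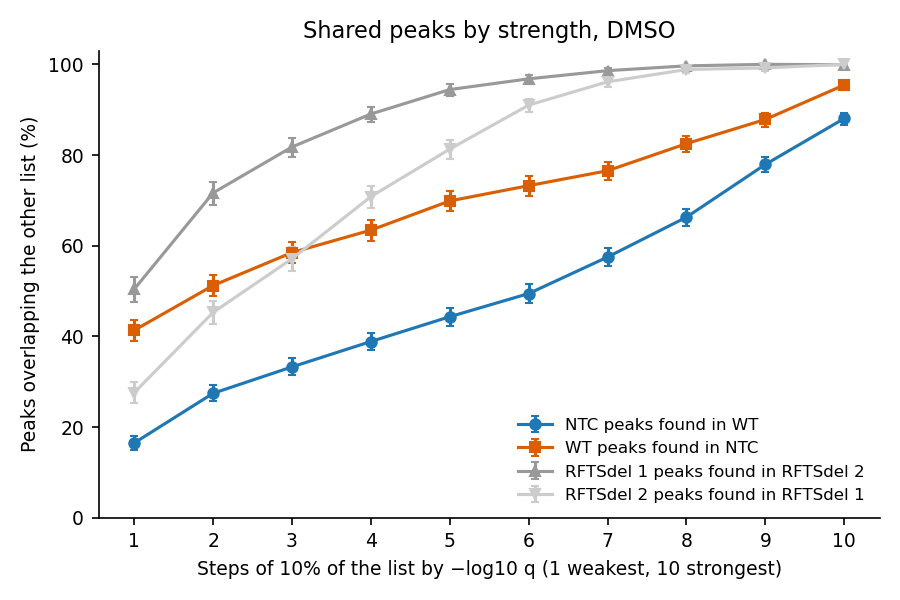
Share of peaks that overlapped the other list, in 10 equal steps of each list from weakest to strongest −log10 q, with 95% Wilson intervals. NTC rose from 16.5% to 88.1% and WT from 41.4% to 95.45%, while both RFTSdel replicates reached 99.9% or more in their strongest 10%.

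The order of the peaks was less alike than their positions. Among the 1000 strongest NTC peaks 933 lay under some WT peak, and among the 1000 strongest WT peaks 976 lay under some NTC peak, but only 330 of each lay under one of the other list's own strongest 1000. Across the 11418 regions made of exactly 1 peak from each list, fold enrichment (the authors' ratio of signal over background at a peak) gave a Spearman rho of 0.44 and −log10 q one of 0.44. This is a description across regions, which share the pair of libraries and are not replicates. The ratio of NTC to WT fold had a median of 1.02, with quartiles of 0.915 and 1.14 and extremes of 0.529 and 2.14. In 209 further shared regions a list held more than 1 peak.

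Lists of different length cannot be compared by these shares alone, so all DMSO lists were also reduced to their strongest 12240 peaks, the length of the shortest. The mean of both directions was then 58.2% for NTC and WT. It was 83.6% for the RFTSdel replicates, the only replicate pair under DMSO. The wild-type pair took place 8 of 10: both wild-type lists overlapped the RFTSdel lists more (63.2% and 63.7% for NTC, 63.7% and 63.8% for WT) than each other. The remaining wild-type comparisons were 56.3% for NTC with UHRF1KO, made in the same batch, and 54.1% for WT with UHRF1KO. At this length the lowest −log10 q kept differed between lists, and the median −log10 q was 4.36 and 4.84 in the RFTSdel lists, 3.55 in UHRF1KO, 2.77 in NTC and 2.58 in WT. Its part in the order of the pairs was not tested.

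The strongest sites common to both lines were gene starts. By the worse of the ranks in the 2 lists, ZNF414 came first (chromosome 19, 8513346 to 8514330, GRCh38), with rank 12 in NTC and 13 in WT. Its fold enrichment was 8.45 in NTC and 7.62 in WT. Its −log10 q was 13.4 in NTC, 12.0 in WT and 14.0 in UHRF1KO. It was 18.6 and 22.8 in the RFTSdel replicates, whose lists run to higher values. The region over UCHL5 and RO60, which encodes an RNA-binding protein, had a fold of 9.04 in NTC and 7.65 in WT. SPNS1 had 8.55 and 7.59, and CISD3, which encodes a mitochondrial iron-sulfur protein, 8.98 and 7.99. At UBE3A, the imprinted ubiquitin ligase gene of the Angelman syndrome locus (chromosome 15, 25438432 to 25439382), the fold was 9.57 in NTC and 6.77 in WT and the rank 4 and 24. The other 5 were PDXDC1, the shared start region of HMGB1 (a chromatin protein) and USPL1 (a SUMO protease), FAM89B with EHBP1L1, the endosomal sorting gene STAM2, and the pseudogene SLC7A5P2. All 10 were also called in the other 3 DMSO lists, and 9 of them lay at an end of a protein-coding gene.

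The longest regions common to both lines were mostly not the strongest, and 7 of the 10 reached an end of a protein-coding gene. LFNG, which encodes a glycosyltransferase acting on Notch, lay under 7744 bp on chromosome 7 (2518168 to 2525911), made of 3 NTC peaks and 1 WT peak, with −log10 q of 2.62 and 1.69. MEF2D, a myocyte enhancer factor gene, followed with 7216 bp, then STX10 and the immediate early gene IER2 with 6779 bp. PLPPR3 and AZU1, a neutrophil granule gene, lay under 6583 bp, and the growth factor gene PDGFA under 6282 bp. An interior region of RUNX1, a master regulator of blood formation, covered 6279 bp on chromosome 21 (34884494 to 34890772). It had −log10 q of 2.996 in NTC and 2.70 in WT and was called in all 8 other lists. The same held for SEPTIN5 with GP1BB. EFNA2, GPX4 with SBNO2, and MIDN completed the 10. The strongest of these peaks were those of GPX4 with SBNO2 (−log10 q of 5.12 in NTC and 2.49 in WT) and MIDN (4.34 and 4.83). Only the EFNA2 region was missing from both RFTSdel lists under DMSO.

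Shared and single-list regions differed in size and place. Shared regions had a median length of 965 bp and covered 13.1 Mb. NTC-only regions had a median of 391 bp and WT-only regions of 436 bp, covering 6.07 and 2.85 Mb. A shared region is the union of peaks of both lists, which adds to its length. By single peaks the gap was smaller: the median was 734 bp for shared and 391 bp for unshared NTC peaks. For WT peaks it was 658 and 436 bp. Regions of 3 kb or more numbered 258 among the shared, 4 among the NTC-only and 3 among the WT-only regions. Close to either end of a protein-coding gene (1 kb or less) lay 58.8% (57.9 to 59.7) of shared regions, 21.5% (20.8 to 22.3) of NTC-only and 23.8% (22.7 to 25.04) of WT-only regions. The interior of a coding gene held 23.7%, 43.2% and 43.4% in the same order, and 11.6%, 26.6% and 24.4% lay outside every annotated gene. Between the single lists these shares were close, and both stood far from the shared class.

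Weak peaks are shared less often and lie less often at gene ends, so the classes were also compared at like strength. Among regions whose stronger peak had −log10 q from 1 to 2, 49.1% of shared, 19.6% of NTC-only and 21.7% of WT-only regions lay at a gene end. From 2 to 3 the shares were 55.2%, 23.5% and 27.4%, from 3 to 4 they were 59.9%, 29.95% and 27.8%, and from 4 upwards 68.5%, 39.9% and 30.9%. The gap between shared and single-list regions was present in each of the 4 ranges. Length was not matched, and a longer region reaches the window around a gene end more easily. A shared region took the higher value of its peaks in both lists here, so its peak in the other list could be weaker than the range. Where both lists were held to −log10 q of at least 4, a single-list region could have a weak peak in the other list, and 73.8%, 62.7% and 59.9% of the classes lay at a gene end.

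Promoters followed their CpG number. In the 250 bases before the start, promoters under a peak of both lines held a median of 26 CpGs (quartiles 20 and 32). Those under an NTC peak only held 21 (15 to 27), those under a WT peak only 20 (14 to 26), and those under neither 7 (2 to 16). The median GC content was 70.0%, 64.4%, 65.6% and 54.8%. Of promoters with 0 to 4 CpGs, 0.874% were covered in both lines, 2.24% in NTC only and 0.915% in WT only. With 40 or more CpGs these shares were 65.3%, 10.2% and 4.83%. The share of NTC-covered promoters that WT also covered rose from 28.1% in the poorest to 86.5% in the richest group, and the reverse share from 48.9% to 93.1%. Promoters of 1 gene can overlap and were counted once per start.

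Short sequence motifs were counted in the same windows on both strands, as a description of letters and not of binding. The ETS-type letters CCGGAAG were in 17.3% of windows covered in both lines, 16.2% of NTC-only and 11.6% of WT-only windows, against 10.7% of all windows. The SP-type letters GGGCGG were in 79.9%, 69.2% and 67.1%, against 53.7% of all. GCATGCGC, the core of the NRF1 motif, was in 4.71%, 5.68% and 2.48%, against 3.27% of all. The ETS and NRF1 letters were thus rarer in WT-only than in NTC-only windows, with 140 and 30 windows behind the WT-only shares. TATAAA was in 3.23%, 5.14% and 5.38% of windows, against 9.0% of all. The ETS, SP and NRF1 letters each contain a CpG, whose number differed between the classes.

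The strongest sites of the NTC list without a WT peak were sites that other lists also held. PHB1 (chromosome 17, 49414836 to 49415261) had a fold of 8.47 and −log10 q of 10.6 in NTC. In the other DMSO lists its −log10 q was 6.30 in UHRF1KO, and 6.12 and 6.21 in RFTSdel, and the nearest WT peak was 23843 bp away. The mitochondrial ribosome gene MRPL35 had −log10 q of 9.996 in NTC, and 2.89, 4.87 and 5.71 in UHRF1KO and RFTSdel. For DVL3 it was 9.25 in NTC, 2.29 in UHRF1KO, and 18.5 and 11.0 in RFTSdel. SELENOH (a selenoprotein gene), LINC00663 on chromosome 19, the nucleoporin gene NUP43, a site 3186 bp from the WEE1-family kinase gene PKMYT1 and the mannose phosphate isomerase gene MPI followed, with −log10 q between 6.95 and 8.89. The remaining 2 lay on chromosome 8, near LINC01300 and at TMEM71 with PHF20L1, the latter 93 bp from a WT peak. All 10 were called in each of the other 3 DMSO lists, so these are sites at which WT lacked a call that the batch-1 RFTSdel lists had.

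The strongest sites of the WT list without an NTC peak were a mixture. The start region shared by ADAT2 and PEX3 (chromosome 6, 143450491 to 143450894) had a fold of 6.94 and −log10 q of 9.29 in WT. It was 4.81 in UHRF1KO, and 9.21 and 14.9 in RFTSdel, and the nearest NTC peak was 85812 bp away. A site 57 bp from MRPL17, LINC00477, C11orf91, LINC01877 and an interior site of DOT1L, the histone H3 lysine 79 methyltransferase on which KMT2A-rearranged leukaemias depend, were also in all other DMSO lists. YY1-DT was in 2 of the 3. In contrast, interior sites of PTPRN2 (chromosome 7, fold 6.55) and of the adhesion gene CADM2 (chromosome 3, fold 6.27) were in no other DMSO list, but both were called in NTC after DNMT1i, with −log10 q of 2.14 and 3.12. The PTPRN2 site was also called in WT after DNMT1i, with −log10 q of 2.37, and the CADM2 site was not. A site 28328 bp from LINC02286 was in no other list. In all, 7 of these 10 peaks had support from another DMSO list.

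Most single-list peaks were weaker than these. The NTC-only peaks had a median −log10 q of 1.62, and 276 of 11787 reached 4. The WT-only peaks had a median of 1.75, and 97 of 5012 reached 4. They were rarely near misses: 3.16% of NTC-only peaks lay within 1 kb of a WT peak and 6.48% of WT-only peaks within 1 kb of an NTC peak, with median distances of 23866 and 14450 bp. The removal of parental peaks made few of them, since the other list had a removed peak at 6 NTC-only and 4 WT-only regions.

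Single-list regions were found in the other libraries far less often than shared ones. Of the shared regions 67.6% (66.7 to 68.4) were in all 3 other DMSO lists, of the NTC-only regions 12.6% (12.0 to 13.2) and of the WT-only regions 8.94% (8.18 to 9.76). At least 1 other DMSO list held 92.7%, 51.7% and 42.9% of them. With NTC and WT held to −log10 q of at least 4 these shares were 96.9%, 81.9% and 77.6%. No other library held 412 shared regions (3.54%), 4946 NTC-only regions (42.0%) and 2161 WT-only regions (43.1%). These shares also move with the length of the other list, which was greatest in UHRF1KO, and batch cannot be told apart from genotype here. NTC-only regions were in UHRF1KO, of the same batch, at 48.4% (47.5 to 49.3) and in RFTSdel at 16.2% and 21.1%. WT-only regions were in RFTSdel, of their own batch, at 13.5% and 17.2% and in UHRF1KO at 38.2%. Within each of these 3 lists the NTC-only share was the higher one.

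After DNMT1i the order of the single-list classes turned. NTC DNMT1i held 6.41% of the NTC-only and 12.4% of the WT-only regions, although the former came from the same line. WT DNMT1i held 4.80% of the NTC-only and 10.6% of the WT-only regions, and 6.67% of the shared ones. UHRF1KO DNMT1i held 4.49% and 6.27%, and RFTSdel DNMT1i 7.07% and 8.52% in replicate 1 and 12.0% and 13.3% in replicate 2. Regions that no other DMSO list but at least 1 DNMT1i list held made up 6.35% (749) of the NTC-only and 14.0% (701) of the WT-only regions, against 3.76% of the shared ones. All 8 other libraries held 86 shared regions, 1 NTC-only and 1 WT-only region.

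At the level of genes, 51.0% of 19970 protein-coding genes had an NTC peak within 1 kb of an end and 44.3% a WT peak. Both lists had one at 38.8% (7756 genes), NTC only at 12.2% (2429) and WT only at 5.47% (1092). By this measure 76.2% of the NTC genes were WT genes and 87.7% of the WT genes were NTC genes. These shares were higher than those of peaks, but the measures are unlike. The NTC and WT peaks of a gene need not overlap or lie at the same end, and peaks away from gene ends are left out. Of the NTC-only genes 49.8% and of the WT-only genes 25.1% had a gene-end peak in all 3 other DMSO lists. With both lists cut to the same length the NTC-only genes numbered 1629 and the WT-only genes 1925, so the surplus of NTC-only genes went with the longer list. The groups are therefore read against the shares over all genes. In 101 NTC-only and 79 WT-only genes the peak belonged to a region that the other list also held, beyond the 1 kb window. The gene groups were chosen with earlier results of these data known, and their counts are descriptions with no test.

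DNMT1 itself (chromosome 19, 10133346 to 10194953) had a shared peak over the 10194953 end, with fold 4.71 and −log10 q of 4.94 in NTC and 3.38 and 2.34 in WT. Inside the gene NTC had 4 further peaks, all with −log10 q under 2, and WT none. UHRF1 had an interior peak in both, 3322 bp long in NTC and 1186 bp in WT, with −log10 q of 2.83 and 2.72, and 2 further NTC peaks. Of 26 genes of maintenance and de novo methylation and demethylation, 14 were in both lists, 7 in NTC only and 1 in WT only. The shared ones were led by the PCNA-binding factor gene PCLAF (−log10 q of 8.25 in NTC and 5.996 in WT), DNMT3B (6.12 and 3.24) and USP7 (5.72 and 2.57), which encodes a deubiquitinase bound by DNMT1 and UHRF1. MBD1 (1.63), which encodes a methyl-CpG reader, the thymine glycosylase gene TDG (2.46) and DNMT3A (2.45) were NTC only. These 3 were in each of the other DMSO lists, and the DNMT3A peak lay in a region shared with WT. The dioxygenase gene TET2 (1.52) was the WT-only one.

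Genes of chromatin and proliferation had more NTC-only than WT-only members, also with both lists at equal length. Of 22 SUMO pathway genes 16 were in both, 4 in NTC only and none in WT only. Among the shared were the SUMO protease gene SENP5 (5.56 in NTC and 4.52 in WT), the ligase genes PIAS4 (5.20 and 2.33) and ZNF451 (4.92 and 5.11), and SUMO3 (4.93 and 3.33), while the ligase gene PIAS1 (3.31) was NTC only. Heterochromatin genes gave 9 in both and 6 in NTC only of 19, with SMCHD1 (4.09 and 6.02) and CBX3 (5.15 and 5.17) shared and the H3K9 methyltransferase genes EHMT2 (4.36) and SUV39H2 (3.80) in NTC only. Cohesin genes with CTCF gave 10 and 2 of 16, and MYC network genes 8 and 3 of 13. None of these 4 groups had a WT-only member, but over all genes the WT-only share was 5.47%, which is few genes in groups this small. Their NTC-only shares were 18.2% for SUMO pathway, 31.6% for heterochromatin and 23.1% for MYC network genes. For cohesin genes with CTCF the NTC-only share was 12.5%, near the 12.2% of all genes. DNA replication genes gave 21 in both, 13 in NTC only and 2 in WT only of 49, with RFC3 (6.21 and 4.49) in both and the flap endonuclease gene FEN1 (3.97) in NTC only. At equal length, where all genes gave 1629 NTC only and 1925 WT only, SUMO pathway genes gave 4 and 0, heterochromatin genes 5 and 0, and DNA replication genes 12 and 2. Cohesin genes with CTCF gave 1 and 0 and MYC network genes 2 and 1. At −log10 q of 4 or more DNA replication genes turned, to 1 and 2. Cohesin genes with CTCF gave 2 and 2 at −log10 q of 2 or more, and 1 and 1 at a fold of 4 or more. For all of these groups WT held the smallest share of the DMSO lists. Of heterochromatin genes WT held 47.4%, against 78.9% in NTC, 84.2% in UHRF1KO, and 73.7% and 84.2% in RFTSdel. For DNA replication genes it was 46.9%, against 69.4%, 75.5%, and 75.5% and 81.6%. Over all genes it was 44.3%, against 51.0%, 53.8%, and 45.1% and 47.7%.

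In the large housekeeping families NTC-only genes also outnumbered WT-only genes. Ribosomal protein genes gave 49 in both, 18 in NTC only and 3 in WT only of 84, led by RPS18 (4.60 in NTC and 7.40 in WT) and RPL18 (6.23 and 3.07). Oxidative phosphorylation genes gave 40, 19 and 3 of 80, led by ATP5MJ (5.96 and 9.19) and NDUFS7 (6.15 and 8.26). Replication-dependent histone genes gave 24, 16 and 2 of 69. The NTC-only shares were 21.4%, 23.8% and 23.2% in this order, against 12.2% of all genes. The WT-only shares were 3.57%, 3.75% and 2.9%, against 5.47% of all genes. The 16 NTC-only histone genes rested on 12 peaks, since neighbours share ends. At equal length the NTC-only and WT-only counts were 12 and 7 for ribosomal protein, 15 and 9 for oxidative phosphorylation and 13 and 8 for histone genes, and at −log10 q of 4 or more ribosomal protein genes gave 6 and 6. Of the genes of these 3 families in the WT list, between 92.3% and 94.2% were also in the NTC list, against 87.7% of all genes. WT held the smallest share of each family among the DMSO lists. Of ribosomal protein genes WT held 61.9%, against 79.8% in NTC, 84.5% in UHRF1KO, and 71.4% and 77.4% in RFTSdel. For oxidative phosphorylation genes it was 53.8%, against 73.8%, 77.5%, and 70.0% and 70.0%. For histone genes it was 37.7%, against 58.0%, 60.9%, and 62.3% and 71.0%.

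Among groups of leukaemia, blood cell and interferon genes, some changed their balance with the length of the lists. Of 33 KMT2A-AFF1 targets and myeloid regulators 20 were in both lists (60.6%), 4 in NTC only (12.1%) and 2 in WT only (6.06%). Over all genes these shares were 38.8%, 12.2% and 5.47%, so the single-list shares of the group were near those of all genes. The receptor kinase gene FLT3 had −log10 q of 6.39 in NTC and 7.64 in WT, AFF1 of 2.06 and 6.57, and MEN1, which encodes a KMT2A partner, of 5.26 and 3.11. SPI1 (1.48) and IRF8 (1.53), which encode myeloid transcription factors, were NTC only, and MEIS1 (1.70) and JMJD1C (1.90) WT only. With both lists at equal length this group turned, to 1 NTC only and 5 WT only, while all genes gave 1629 and 1925. Myeloid surface and granule genes gave 8, 5 and 2 of 28, with CD33 (6.91 and 5.04) in both and CD14 (2.70) in NTC only, and 4 NTC only and 3 WT only at equal length. Lymphoid and erythroid genes gave 5, 4 and 4 of 34, with RAG1 (3.17 and 5.998) in both, and at equal length 0 NTC only and 7 WT only. Viral sensing and interferon genes gave 15, 8 and 4 of 45, and 7 NTC only and 4 WT only at equal length. STING1 (3.71 and 3.18) was in both, TBK1 (4.06) was in NTC only, and ISG15 (1.77), IFIT1 (1.49), IRF3 (1.47) and MX2 (2.06) in WT only. The IRF3 peak lay in a region shared with NTC. TBK1, ISG15, IRF3 and MX2 were in each of the other DMSO lists, and IFIT1 in no other library.

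Zinc finger genes of chromosome 19 and germline genes had more WT-only than NTC-only members although the NTC list was the longer. Zinc finger genes on chromosome 19, most of them clustered KRAB genes that silence retroelements, numbered 258, and 87 were in both lists, 25 in NTC only and 44 in WT only. The WT-only share was 17.1%, against 5.53% of the other 1193 protein-coding genes of chromosome 19 and 5.03% of the 298 zinc finger genes elsewhere. The split by chromosome was chosen after values had been seen. Within 1 kb of a start, where strand was known, 40 of 225 were WT only and 20 NTC only. The WT-only members were led by ZNF792 (4.58), ZNF155 (4.07), ZNF613 (3.95) and ZNF700 (3.67), and all 44 lay in regions without an NTC peak. NTC DNMT1i had a peak at 21 of the 44 and WT DNMT1i at 16, while the RFTSdel replicates had 9 and 8 under DMSO and UHRF1KO had 11. Thus the list of the NTC line after DNMT1i held 47.7% of them, against 33.5% of all WT-only genes. The whole group was also held more often after DNMT1i. Of all 258 genes NTC DNMT1i held 28.7% and WT DNMT1i 22.5%, against 14.6% and 9.98% of all protein-coding genes. Under DMSO the RFTSdel replicates held 30.2% and 34.5% of the 258 and UHRF1KO 40.3%. Over all protein-coding genes these lists held 45.1%, 47.7% and 53.8%. With both lists at equal length the counts were 58 WT only and 14 NTC only. At −log10 q of 2 or more they were 35 and 27, against 1604 and 2228 over all genes. At a fold of 4 or more they were 24 and 24, against 1346 and 2286. At −log10 q of 4 or more they turned, to 7 and 17, against 716 and 1112.

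Germline defence and meiosis genes, classical targets of DNA methylation in somatic cells, were mostly without a peak: of 58, 7 were in both lists, 3 in NTC only and 10 in WT only. The shared ones included the synaptonemal complex gene SYCE2 (3.75 in NTC and 7.61 in WT) and the piRNA helicase gene MOV10L1 (5.29 and 6.25). TDRKH (2.96), DDX4 (2.77), TDRD1 (2.59) and STAG3 (2.17) led the WT-only ones, and SYCP1 (1.47) the NTC-only ones. TDRKH and STAG3 were in each of the other DMSO lists, and TDRD1 in both RFTSdel lists under DMSO. DDX4, the VASA helicase gene, had a peak in no other library. Of the 58 genes, WT held 17 under DMSO, NTC 10, UHRF1KO 15 and the RFTSdel replicates 9 and 11. The WT-only share was 17.2%, against 5.47% of all genes, and the NTC-only share 5.17%, against 12.2%. At equal length the group gave 10 WT only and none NTC only, while all genes gave 1925 and 1629.

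Developmental transcription factor genes, which carry Polycomb-bound CpG islands in many cell types, gave 35 in both, 16 in NTC only and 18 in WT only of 119. GATA4 (2.57 in NTC and 6.16 in WT), PITX1 (1.72 and 4.69) and CDX2 (4.25 and 4.50) were shared, PAX1 (2.59) and GATA6 (2.13) NTC only, and LMX1B (3.65) and PAX5 (2.29) WT only. The LMX1B peak lay in a region shared with NTC. The single-list members were rare in the RFTSdel lists under DMSO and common after DNMT1i, but so was the group as a whole. Of all 119 genes the RFTSdel replicates held 21.8% and 19.3% under DMSO, NTC DNMT1i 65.5% and WT DNMT1i 59.7%. Of the 35 shared genes the same lists held 68.6% and 62.9%, 54.3% and 51.4%. Of the 16 NTC-only genes the RFTSdel replicates held 2 and 1 under DMSO, NTC DNMT1i 14 and WT DNMT1i 13. Of the 18 WT-only genes the same lists held 0 and 0, 11 and 11. For all NTC-only genes the RFTSdel replicates held 56.1% and 63.9% under DMSO and NTC DNMT1i 16.1%. HOX genes gave 8, 10 and 4 of 39, with HOXA10 (3.01 and 4.26) and HOXA13 (4.02 and 3.05) in both, HOXA5 (2.90) in NTC only and HOXB5 (2.83) in WT only. At equal length HOX genes turned, to 3 NTC only and 5 WT only, and developmental factor genes gave 7 and 22.

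Among 33 imprinted genes with a coding product 12 were in both lists, 4 in NTC only and 5 in WT only. IGF2R (6.21 in NTC and 4.53 in WT), INPP5F (2.98 and 5.65) and KCNQ1 (4.54 and 3.17) followed UBE3A among the shared. PEG3 and ZIM2 shared a single NTC-only value (1.10), and PEG10 and SGCE a single WT-only value (2.19), as neighbours with a common end. Potassium channel genes gave 22, 12 and 10 of 95, with KCNJ11 (7.49 and 4.16) in both. At equal length the NTC-only and WT-only counts were 1 and 6 for imprinted and 5 and 14 for potassium channel genes. Clustered protocadherin genes looked the most one-sided, with 24 of 53 in NTC only, 1 in WT only and none in both. These 24 rested on 3 weak peaks (−log10 q of 1.70 or less), and 22 of them on a region that WT also held. With a 3 kb window 23 were in both lists, and at −log10 q of 2 or more none was in either list.

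**Figure D2:**
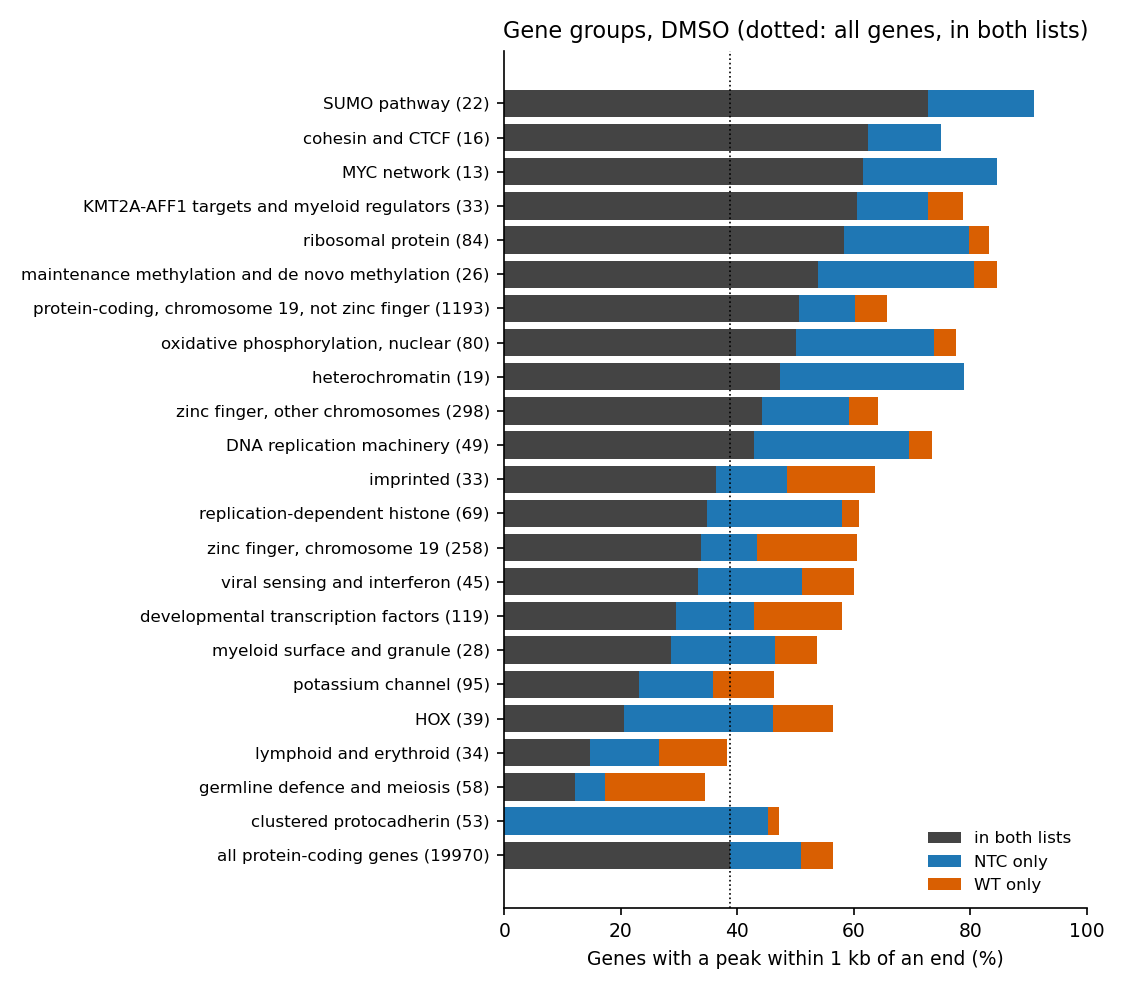
Share of each gene group (number of genes in brackets) with a peak within 1 kb of an end in both lists, in NTC only and in WT only, with all protein-coding genes at the bottom and their share in both lists (38.8%) as a dotted line. WT-only shares were 17.1% for chromosome 19 zinc finger genes and 17.2% for germline genes, against 5.47% of all genes, and the protocadherin bar rests on 3 peaks.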

How the data were processed

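Anti-GFP ChIP-seq was made from MV4-11 cells after dual crosslinking (disuccinimidyl glutarate, then formaldehyde), per the labels' protocols. Groups, replicates and batches were taken from the sample labels. The design text of the series numbers the batches the other way round, and the sample labels were followed. Of 13 samples, the deposited files of 11 were broad peak lists, each called in 1 library and not on pooled samples. The input samples were not used here. The submitters' processing notes name the GRCh38 build and, without versions or order, MACS2, BWA, deepTools, Picard and cutadapt. Which library was the control for peak calling is not given in the sources used here. In the deposited lists, fold is the ratio of signal to background at a peak, the −log10 columns hold −log10 p and −log10 q, and the score is derived from −log10 q. These are the authors' values, and they served to order, filter and describe the peaks of each list. The strength ranges of regions used the higher value of the NTC and WT peaks. Each list ended just above a −log10 q of 1. Depth is unknown.

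Peaks overlapped when they shared at least 1 bp. Peaks of NTC and WT DMSO were merged into regions, and a region held another library when that library had a peak in it. Gene positions (19970 protein-coding genes), strands and promoter sequences were from RefSeq for GRCh38.p14. Strand was given for 15812 protein-coding genes, and promoters of chromosome 8 were not used. Regions of each class are within 1 kb of either gene end, inside a gene, or outside every gene. Exons were not annotated. No test was made, since each line had 1 library per treatment.

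The members and the gene lists were chosen with earlier results of these data known. Named sites are the 10 best ranked and the 10 longest shared regions, the 10 strongest peaks of each list alone, up to 4 members per class and gene list, DNMT1 and UHRF1, and up to 5 single-list regions called in all other DMSO lists. Promoters printed are up to 3 shared and 2 per single list. Alternatives kept parental peaks, raised the −log10 q or fold threshold, cut the lists to equal length, required 50% coverage, merged within 1 kb, kept all contigs, or used 3 kb around gene ends. Leaving out an RFTSdel replicate and recounting the gene groups were added after the data were seen. The overlap code was tested on simulated data: with a list derived from the 23561 NTC peaks it recovered 7 of 7 built-in answers. The software was Python 3.11.15 with pandas 2.3.3, numpy 2.4.6, matplotlib 3.10.9 and scipy 1.17.1.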

Additional observations from a re-analysis of the deposited data

How the results depend on the processing

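The alternatives that moved a value are given as share of NTC and of WT peaks shared, regions (both, NTC only, WT only), genes (same order), gene-end share (same order) and presence in at least 1 other DMSO list (same order). At −log10 q of at least 2 the shares were 51.99% and 61.2%, shared and NTC-only regions 5902 and 5486, shared genes 4419, gene-end shares 64.8%, 36.3% and 39.4%, presence 94.97%, 62.4% and 59.5%, and the RFTSdel replicate shares 89.6% and 78.6%. At 4 or more they were 35.7% and 44.6%, 833, 1503 and 1034 regions, 734, 1112 and 716 genes, gene-end shares of 73.8%, 62.7% and 59.9%, presence of 96.9%, 81.9% and 77.6%, and 86.0% (85.98) for RFTSdel replicate 1 in replicate 2. At a fold of at least 4 they were 43.0% (42.99) and 55.1%, 3719, 4950 and 3035 regions, 2864 shared genes, gene-end shares of 66.0% (66.01), 40.6% and 40.3%, and presence of 93.3%, 62.2% and 55.06%. With NTC and WT cut to equal length the shares were 60.04% and 59.8%, NTC-only regions 6676, WT-only genes 1925, gene-end shares 61.0%, 24.1% and 29.1%, presence 95.1%, 61.35% and 51.6%, and the RFTSdel shares, at the length of their shorter list, 83.8% and 83.4%. In each of these settings shared regions lay at gene ends and in other DMSO lists more often than single-list regions did.

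Requiring 50% of a peak to be covered gave 38.6% and 57.2%. Keeping the parental peaks gave 50.8%, 70.7% and a gene-end share of shared regions of 59.8%. Merging within 1 kb gave 51.55% and 71.9%, and presence of 54.7% and 44.7% for NTC-only and WT-only regions. A window of 3 kb gave gene-end shares of 65.0% (64.99), 30.3% and 34.1%. Without RFTSdel replicate 1 or replicate 2, presence was between 91.7% and 92.1% for shared, 50.1% and 51.1% for NTC-only and 41.0% and 41.9% for WT-only regions. Of 120 values under an alternative, 52 stayed within the interval of the reported value, or within 1.5 times for counts. Of 552 counts for gene groups, 371 did so. The cause of the changes beyond the settings themselves was not tested. No paired analysis was possible because no result comes from a test and each line had 1 library per treatment. Unknown depth limits every absence of a peak to an absence of a call.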

Other observations

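Genes without a protein product were occupied in smaller shares, and their bodies, not ends, were counted. Of 443 tRNA genes, 44 (9.93%) lay under a peak of both lines, 43 (9.71%) of NTC only and 21 (4.74%) of WT only. Of 154 snRNA genes, 19 were under peaks of both, 5 of NTC only and 2 of WT only. Of 18177 lncRNA genes, 2269 (12.5%) were shared, 1458 NTC only and 630 WT only. Olfactory receptor genes, which mostly act in the olfactory epithelium, were almost without peaks: of 390, OR52K1 was in both lists, OR2AE1 in NTC only and OR2L13 in WT only, the last with −log10 q of 3.80.

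Chromosomes differed in the balance of the single lists. On chromosome 19, 526 regions were WT only and 820 NTC only, or 64.2 WT-only regions for 100 NTC-only regions, the highest ratio of the 23 chromosomes, and 47.9% of its regions were shared. The ratio was lowest on X, at 29.8, where 32.4% of regions were shared. Regions within 3 Mb of the first base or of the last annotated gene of a chromosome made up 15.2% of the shared, 13.1% of the NTC-only and 18.0% of the WT-only regions.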
